A study of Homo sapiens with 22 samples.

Results

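The FOS and JUN genes of the AP-1 transcription factor were followed through a LUHMES cell model of Parkinson disease. The members were the 7 genes named FOS, FOSB, FOSL1, FOSL2, JUN, JUNB and JUND, taken from the deposited count table by gene symbol. Of these, 6 were measured and JUNB was not analysed here. All 6 passed the filter on low counts, which kept 16601 of the 34679 genes in the table. The filter read all treatment groups together. A gene low in untreated cells could therefore pass through groups where it was high, as FOS and FOSL2 did. Counts of rises after 6-hydroxydopamine include such genes.

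AP-1 is a dimer of basic leucine zipper proteins that binds short palindromic DNA sites. FOS proteins cannot form stable dimers among themselves and bind DNA with a JUN partner, whereas JUN proteins can also pair with each other. In neurons FOS and FOSB are immediate-early genes that are switched on briefly by activity and stress, and JUN, activated by the JNK kinases, is known for its part in axon injury and neuronal death.

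LUHMES is a line from human embryonic midbrain, held dividing by a switchable oncogene, and according to the design text it was differentiated, which yields dopaminergic-like neurons. Poly(A) RNA of 22 libraries in 6 groups was sequenced. In alpha-synuclein-overexpressing cells these were 6-hydroxydopamine (6-OHDA) with quercetin (3 libraries), 6-OHDA with rutin (3), 6-OHDA alone (4) and no treatment (4). Wild-type cells received 6-OHDA (4 libraries) or no treatment (4). 6-OHDA is a dopamine analogue that oxidises inside cells, quercetin is a flavonol and rutin is its glycoside. The sources used here do not give doses, exposure times, the promoter that drives alpha-synuclein or whether each library had a culture of its own, so a p-value here reflects how these libraries scatter, which may be technical.

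Library totals ran from 1.87 M to 20.7 M counts, so that 3 counts corresponded to 0.168 to 1.49 CPM (the count relative to a library's size, with sizes scaled by TMM). Of 8 neuron markers all were detected in each group, and 6 to 8 of 8 dopaminergic markers. The summed neuron markers were 3710 to 5720 CPM in 6-OHDA against 7800 to 9780 CPM in untreated alpha-synuclein cells, and 3300 to 3630 CPM in 6-OHDA against 9170 to 10100 CPM in untreated wild-type cells. In the neuron list TUBB3 went the other way, with a mean of 167 CPM in 6-OHDA against 132 CPM in untreated alpha-synuclein cells and 170.2 CPM in 6-OHDA against 110.1 CPM in untreated wild-type cells. The dopaminergic markers summed to 108 to 138 CPM in 6-OHDA against 397 to 507 CPM in untreated alpha-synuclein cells, and to 192 to 206 CPM in 6-OHDA against 428 to 482 CPM in untreated wild-type cells. Most of that sum was TH, at a mean of 67.3 CPM in 6-OHDA against 348.5 CPM in untreated alpha-synuclein cells and 126 CPM in 6-OHDA against 374 CPM in untreated wild-type cells, while NR4A2 rose, to 16.8 CPM in 6-OHDA against 9.29 CPM in untreated alpha-synuclein cells and 25.1 CPM in 6-OHDA against 8.29 CPM in untreated wild-type cells. Markers of cycling cells summed to 9.69 to 44.2 CPM in 6-OHDA against 53.6 to 104 CPM in untreated alpha-synuclein cells, and to 19.4 to 25.4 CPM in 6-OHDA against 52.3 to 71.5 CPM in untreated wild-type cells. The oligodendrocyte markers summed to 30.8 to 51.7 CPM in 6-OHDA against 71.6 to 94 CPM in untreated alpha-synuclein cells, and to 34.5 to 64.2 CPM in 6-OHDA against 74.1 to 84.1 CPM in untreated wild-type cells. The astrocyte markers summed to 11.5 to 22.6 CPM in 6-OHDA against 10.4 to 14.9 CPM in untreated alpha-synuclein cells, and to 15.9 to 24.2 CPM in 6-OHDA against 10.2 to 13.8 CPM in untreated wild-type cells, with 2 of 3 tested higher in each genotype. The microglial and leukocyte markers summed to 5.73 to 11.8 CPM in 6-OHDA against 4.82 to 6.11 CPM in untreated alpha-synuclein cells, and to 7.56 to 12.6 CPM in 6-OHDA against 3.83 to 6.21 CPM in untreated wild-type cells, and all 4 were detected in 6-OHDA groups but 2 of 4 in untreated groups. The epithelial markers summed to 6.76 to 11.3 CPM in 6-OHDA against 4.34 to 6.17 CPM in untreated alpha-synuclein cells, and to 5.97 to 13.9 CPM in 6-OHDA against 3.83 to 4.67 CPM in untreated wild-type cells. The fibroblast list stayed at or under 23.4 CPM and the endothelial list at or under 4.97 CPM. Mitochondrial genes held 0.818 to 1.09% of counts in 6-OHDA against 0.868 to 1.2% in untreated alpha-synuclein cells, and 0.544 to 0.784% in 6-OHDA against 0.868 to 1.01% in untreated wild-type cells, so the 6-OHDA wild-type group, where JUN and JUND stood highest, had the lowest shares but for an overlap with rutin. In bulk RNA, fewer cells of a type and less RNA per cell cannot be told apart, and the part of these shifts in the results below was not tested. Library names place the 12 libraries of untreated cells and of 6-OHDA wild-type cells on sequencing lane 1 and the other 10 on lane 2. Replicate 4 of the 6-OHDA alpha-synuclein group stood apart and scored -1.47 on the first principal component of all genes, where the other 6-OHDA libraries scored 35.8 to 45.3.

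The stretch of 300 bases around the annotated start of a gene is shown for the members with the largest responses and for the pair of JUN genes, because FOS and FOSB differed from JUN and JUND in how far their transcripts moved. The sequences are RefSeq's, on GRCh38.p14 and on the gene's own strand. They lie at chr14:75278578-75278877 (plus strand) for FOS, chr19:45467746-45468045 (plus strand) for FOSB, chr1:58783998-58784297 (minus strand) for JUN and chr19:18281573-18281872 (minus strand) for JUND. Capitals mark the searched motifs: TGACG, the core of the CRE bound by CREB and ATF proteins, with its reverse CGTCA; the AP-1 sites TGANTCA and TGANNTCA, where N is any base and the full CRE TGACGTCA is one form of the longer site; and TATAAA, the TATA box.
FOS: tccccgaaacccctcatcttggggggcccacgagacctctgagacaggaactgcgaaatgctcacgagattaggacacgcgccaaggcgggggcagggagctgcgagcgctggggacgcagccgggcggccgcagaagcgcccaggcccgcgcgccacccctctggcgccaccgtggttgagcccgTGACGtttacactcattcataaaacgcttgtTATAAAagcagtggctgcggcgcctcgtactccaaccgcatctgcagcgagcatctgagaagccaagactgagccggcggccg
FOSB: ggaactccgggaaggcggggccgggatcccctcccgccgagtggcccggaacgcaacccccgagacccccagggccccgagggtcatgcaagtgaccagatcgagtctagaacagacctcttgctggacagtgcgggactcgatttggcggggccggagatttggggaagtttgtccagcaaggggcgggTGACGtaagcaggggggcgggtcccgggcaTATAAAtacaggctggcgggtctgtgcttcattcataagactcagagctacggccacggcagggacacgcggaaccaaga
JUN: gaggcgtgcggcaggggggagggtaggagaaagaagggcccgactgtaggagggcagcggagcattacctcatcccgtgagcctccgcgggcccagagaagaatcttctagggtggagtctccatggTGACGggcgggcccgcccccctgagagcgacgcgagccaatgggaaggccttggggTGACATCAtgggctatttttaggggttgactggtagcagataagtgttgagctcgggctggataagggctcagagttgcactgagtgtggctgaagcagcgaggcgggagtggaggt
JUND: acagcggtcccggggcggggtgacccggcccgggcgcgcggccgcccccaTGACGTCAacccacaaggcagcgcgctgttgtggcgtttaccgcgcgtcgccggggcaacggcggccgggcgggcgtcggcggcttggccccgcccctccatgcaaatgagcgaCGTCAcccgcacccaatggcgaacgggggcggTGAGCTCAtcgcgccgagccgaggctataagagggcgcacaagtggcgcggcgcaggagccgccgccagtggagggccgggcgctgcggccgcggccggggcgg
FOS and FOSB shared a layout, with a CRE core at 64 and 60 bases before the start and a TATA box at 33 and 30 bases before it. JUN held a CRE core and, 67 bases before the start, TGACATCA, a form of the longer AP-1 site. JUND held the full CRE TGACGTCA, TGAGCTCA and a further CRE core, in a promoter of 77% GC against 62 to 64.7% in the other 3. FOSL2 (chr2:28392608-28392907, plus strand) had TGACTCA, the shorter AP-1 site, and 2 CRE cores. Over 35116 RefSeq promoters of the same length, 24.6% held a CRE core, 1.85% the full CRE, 11.5% the longer and 7.71% the shorter AP-1 site (all on both strands), and 7.33% held TATAAA on the gene's strand. The CArG box, which SRF binds, was in 1.29% of these promoters and in none of the 5 described. A match of letters shows neither binding nor use, and no match speaks only of this window. Distances are from RefSeq's start, and GENCODE 29, the annotation used for the gene spans below, places some starts elsewhere. By GENCODE the windows of JUN and FOSL2 lie wholly inside the genes, and the TATA box of FOS lies past its start.

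The members differed widely in level. Per kilobase of transcript, JUND was the most abundant in all 6 groups and JUN the next, and the 4 FOS genes together made up 0.629 ± 0.121% of the 6 measured members in untreated alpha-synuclein cells and 0.83 ± 0.0912% in untreated wild-type cells (SD, n = 4 each). The files' own gene identifiers are ENSG00000170345 for FOS, ENSG00000125740 for FOSB, ENSG00000175592 for FOSL1, ENSG00000075426 for FOSL2, ENSG00000177606 for JUN and ENSG00000130522 for JUND. In GENCODE 29 (GRCh38) FOS spans chr14:75278774-75282230 on the plus strand, FOSB chr19:45467995-45475179 on the plus strand and FOSL1 chr11:65892049-65900573 on the minus strand. FOSL2 spans chr2:28392448-28417312 on the plus strand, JUN chr1:58780788-58784327 and JUND chr19:18279760-18281622, both on the minus strand. JUN and JUND have a single exon. FOSB overlaps ERCC1 on the other strand and FOSL2 an antisense RNA, and since the sources used here do not say whether counting used strand, their counts are uncertain to that extent.

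**Figure D1:**
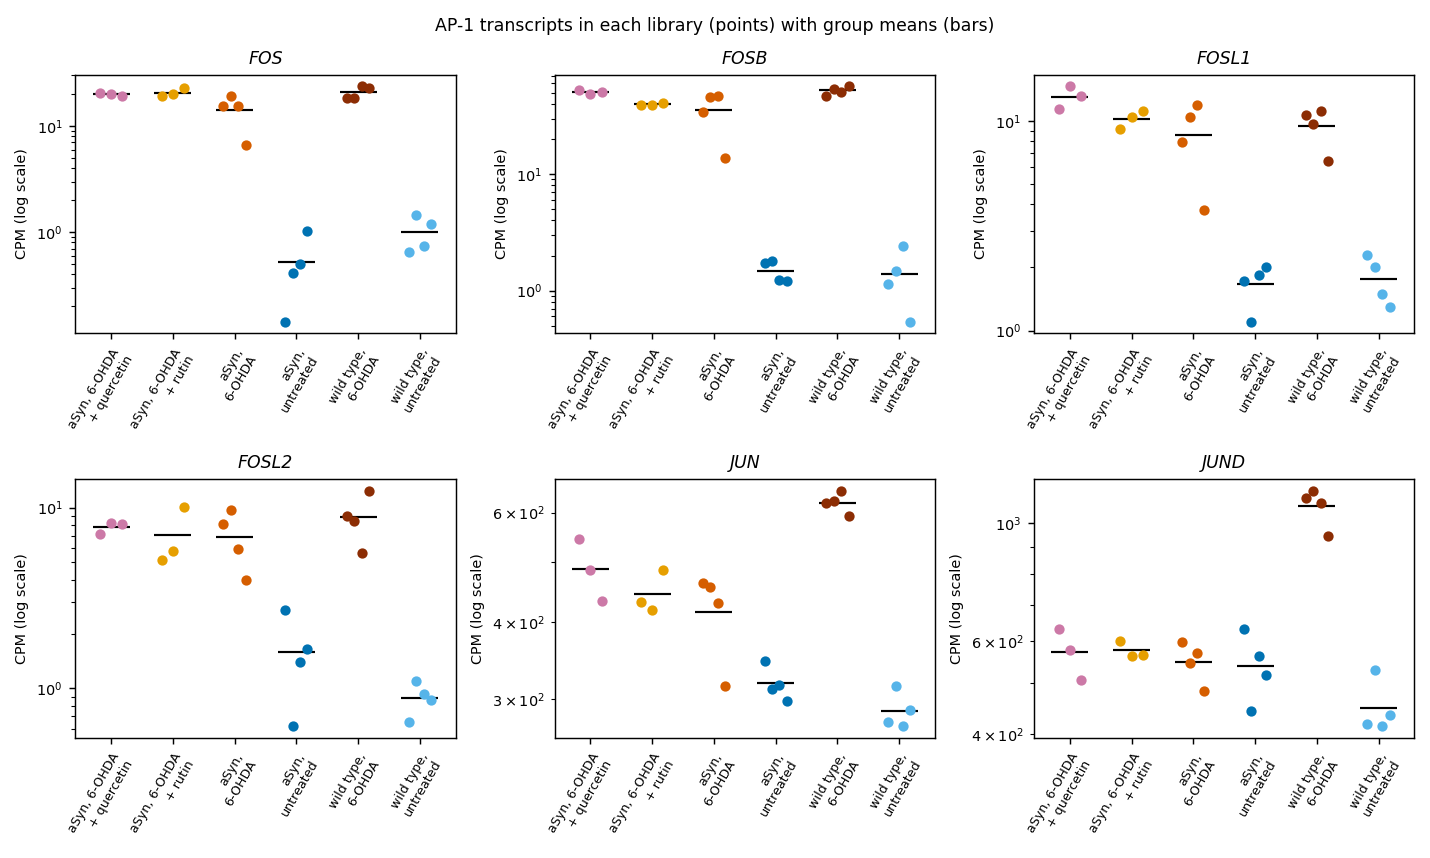
CPM (log axis) of the 6 measured members in each library (points), with group means (bars), for quercetin, rutin, 6-OHDA and untreated alpha-synuclein (aSyn) cells and for 6-OHDA and untreated wild-type cells. The 4 FOS genes lie in separate ranges with and without 6-OHDA in both genotypes, while JUN and JUND stand highest in 6-OHDA wild-type cells, and replicate 4, the rightmost point of the 6-OHDA alpha-synuclein group, is the lowest of its group for all 6 members.

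The first question was how 6-OHDA changed the family in each genotype. In wild-type cells all 6 measured members were higher after 6-OHDA. With p-values from edgeR (quasi-likelihood test) adjusted by Benjamini and Hochberg over all 16601 genes and a threshold of 0.05, 6 of 6 rose, where 25.8% of all genes rose, 26.2% fell and 52% changed in either direction. In alpha-synuclein cells 5 of 6 rose, all but JUND, where 22.9% of all genes rose, 24.2% fell and 47.1% changed. FOS and FOSL2, included in both counts, passed the filter on low counts through the groups with 6-OHDA, where they were high. The rises were largest in FOSB and FOS, intermediate in FOSL2 and FOSL1, and smallest in JUN and JUND. The alpha-synuclein comparison sets lane 2 against lane 1, so lane and treatment cannot be told apart there, whereas both wild-type groups shared lane 1.

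FOS, the founding immediate-early member, was near the floor of detection in untreated cells. It had 15.45, 19.4, 15.5 and 6.64 CPM in 6-OHDA alpha-synuclein libraries 1 to 4, against 0.143, 0.413, 0.503 and 1.03 CPM in untreated ones, which rest on 1 to 18 counts. In wild-type cells it had 18.4, 18.45, 23.7 and 22.9 CPM after 6-OHDA and 0.653, 1.46, 0.747 and 1.19 CPM untreated. Every treated library lay above every untreated library of its genotype. The share of all genes that separate in this way was not counted, so separated ranges are descriptions here and below. The log2 fold change was 4.51 ± 0.34 in alpha-synuclein cells (SE, adjusted p = 8.76e-10) and 4.30 ± 0.35 in wild-type cells (adjusted p = 1.5e-09), or 22.7-fold and 19.8-fold higher.

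FOSB, which also gives the truncated, long-lived deltaFosB protein by splicing, was the FOS gene with the highest CPM after 6-OHDA. Its levels were 33.9, 45.9, 47 and 13.8 CPM in 6-OHDA alpha-synuclein cells and 1.72, 1.79, 1.23 and 1.2 CPM in untreated ones. In wild-type cells they were 47, 54.1, 51.2 and 56.7 CPM after 6-OHDA and 1.14, 1.46, 2.43 and 0.541 CPM untreated. The treated and untreated ranges did not overlap in either genotype. The log2 fold change was 4.54 ± 0.32 in alpha-synuclein cells (adjusted p = 4.27e-10) and 5.32 ± 0.36 in wild-type cells (adjusted p = 1.37e-10). The table counts genes, so the splice forms of FOSB were not told apart.

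FOSL1 (FRA1) and FOSL2 (FRA2), which lack the strong activation domain of FOS and are later responders in many cells, moved less. FOSL1 had 7.98, 10.4, 12 and 3.75 CPM in 6-OHDA alpha-synuclein cells against 1.72, 1.1, 1.84 and 2 CPM in untreated ones, and 10.7, 9.68, 11.2 and 6.47 CPM in 6-OHDA wild-type cells against 2.29, 2.01, 1.5 and 1.3 CPM in untreated ones. FOSL2 had 8.14, 9.69, 5.88 and 3.97 CPM in 6-OHDA alpha-synuclein cells against 2.72, 0.62, 1.4 and 1.66 CPM in untreated ones, and 9.04, 8.47, 5.58 and 12.4 CPM in 6-OHDA wild-type cells against 0.653, 1.1, 0.934 and 0.865 CPM in untreated ones. Both genes were above all untreated libraries in every treated library of the same genotype, with replicate 4 nearest to the untreated range in alpha-synuclein cells. FOSL1 rose by 2.25 ± 0.29 log2 units in alpha-synuclein cells (adjusted p = 1.87e-06) and by 2.47 ± 0.32 in wild-type cells (adjusted p = 1.31e-06). FOSL2 rose by 2.12 ± 0.34 in alpha-synuclein cells (adjusted p = 2.64e-05) and by 3.31 ± 0.40 in wild-type cells (adjusted p = 4.85e-07).

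JUN, the main partner of FOS proteins and the substrate after which the JNK kinases are named, was expressed in all groups and moved differently in the genotypes. In alpha-synuclein cells it had 462.3, 455.1, 428.8 and 315.5 CPM after 6-OHDA and 346.6, 311.4, 317 and 298.5 CPM untreated. In wild-type cells it had 621, 626.4, 651.1 and 592.8 CPM after 6-OHDA and 275.7, 315.2, 271.9 and 288.8 CPM untreated. The wild-type groups were far apart, while the alpha-synuclein groups overlapped through replicate 4, the lowest treated library. The log2 fold change was 0.38 ± 0.10 in alpha-synuclein cells (adjusted p = 0.00317) and 1.11 ± 0.10 in wild-type cells (adjusted p = 6.79e-09). Without replicate 4 the value in alpha-synuclein cells was 0.50 (adjusted p = 1.35e-05).

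JUND, the JUN gene that is broadly expressed in resting cells and can restrain growth, passed the threshold after 6-OHDA in wild-type cells only in this fit. Its levels were 596.5, 544.5, 570.1 and 481.9 CPM in 6-OHDA alpha-synuclein cells against 631.1, 442.2, 562.2 and 516.4 CPM in untreated ones. In wild-type cells they were 1114, 1150, 1088 and 943.4 CPM after 6-OHDA and 418.7, 529, 414.8 and 434.5 CPM untreated. All treated wild-type libraries were above every other library of the series, and the alpha-synuclein groups overlapped fully. The log2 fold change was 0.027 ± 0.10 in alpha-synuclein cells (adjusted p = 0.852, 95% interval -0.19 to 0.24) and 1.26 ± 0.10 in wild-type cells (adjusted p = 2.27e-09).

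The make-up of the family shifted with these changes. Per kilobase of transcript, the 4 FOS genes made up 6.69 ± 2.24% of the measured family in 6-OHDA against 0.629 ± 0.121% in untreated alpha-synuclein cells, and 5.34 ± 0.576% in 6-OHDA against 0.83 ± 0.0912% in untreated wild-type cells (SD, n = 4 each). Within the FOS class, FOSL1 was the largest part of the untreated pool, at 51.1 ± 5.35% in alpha-synuclein and 48.3 ± 9.83% in wild-type cells. After 6-OHDA its share was 20.7 ± 1.98% in alpha-synuclein and 16.7 ± 3.98% in wild-type cells, and FOSB and FOS made up most of the class. JUND exceeded JUN per kilobase by 2.54 ± 0.265 times in 6-OHDA against 3.2 ± 0.344 times in untreated alpha-synuclein cells, and by 3.27 ± 0.213 times in 6-OHDA against 2.96 ± 0.155 times in untreated wild-type cells. These shares were computed from the values tested above and were given no test of their own.

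**Figure D2:**
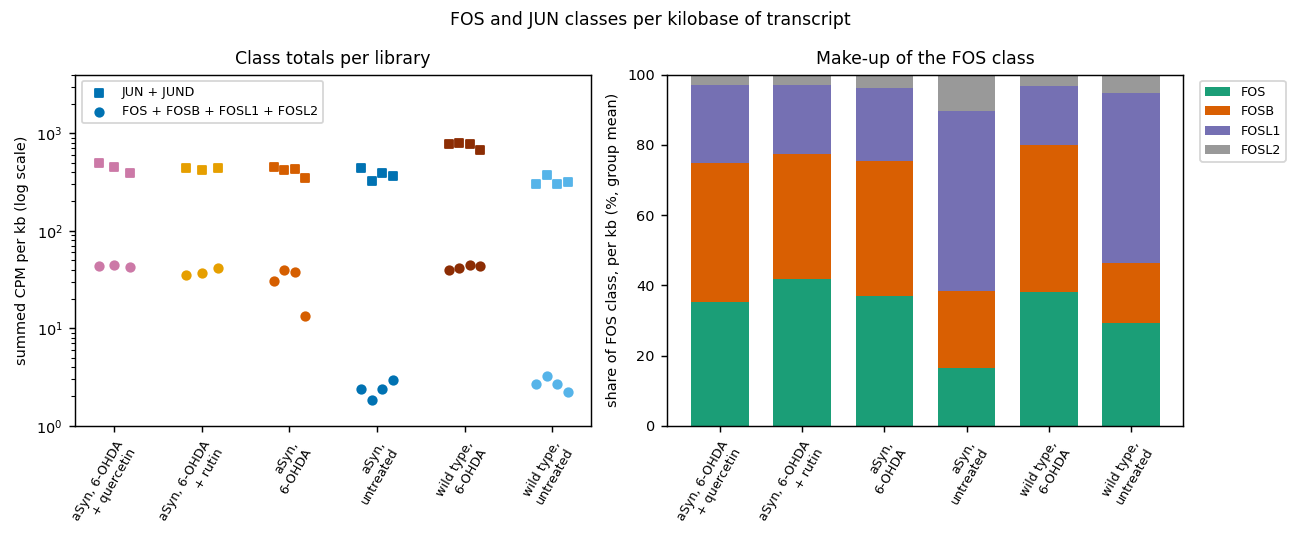
Left, summed CPM per kilobase (log axis) of the JUN class (JUN and JUND, squares) and the FOS class (4 genes, circles) in each library, and right, the mean share of each gene in the FOS class per group. The FOS class sums to 13.2 to 39.7 in 6-OHDA against 1.84 to 2.94 in untreated alpha-synuclein cells and to 39.4 to 44.8 in 6-OHDA against 2.2 to 3.28 in untreated wild-type cells, and FOSL1 leads the class in untreated cells.

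The next question was whether alpha-synuclein overexpression changed the family. In untreated cells no member differed between alpha-synuclein and wild-type cells by edgeR's quasi-likelihood test (0 of 6, where 0.651% of all genes changed). At an unadjusted p under 0.05 there was 1 of 6 members, JUND, beside 1534 of all 16601 genes, and DESeq2 also called 0 members. The JUND log2 difference was 0.26, with a 95% interval of 0.045 to 0.47 and an adjusted p of 0.393. The intervals of the FOS genes were wide at these low counts, from -1.76 to 0.17 for FOS and from -0.14 to 1.66 for FOSL2. FOS and FOSL2 did not pass the filter on low counts in a fit of the untreated groups alone, so that fit tested neither.

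After 6-OHDA, alpha-synuclein cells had less JUN and JUND than wild-type cells. These 2 of 6 members fell, where 12.9% of all genes fell and 27.3% changed in either direction. The count is near the share that changed in either direction and is no result about the family. The alpha-synuclein libraries here were on lane 2 and the wild-type libraries on lane 1, so genotype and lane cannot be told apart. JUN was at 415.4 ± 68.2 CPM in alpha-synuclein cells and 622.8 ± 23.9 CPM in wild-type cells (SD, n = 4 each), a log2 difference of -0.59 ± 0.10 (SE, adjusted p = 0.000236). JUND was at 548.2 ± 49.1 CPM in alpha-synuclein and 1074 ± 90.6 CPM in wild-type cells, a log2 difference of -0.97 ± 0.10 (adjusted p = 6.68e-06). For both genes every alpha-synuclein library was below every wild-type library, a description only, as the share of all genes that separate in this way was not counted. The FOS genes gave log2 differences of -0.60 for FOS (adjusted p = 0.0985), -0.62 for FOSB (0.0757), -0.28 for FOSL1 (0.515) and -0.43 for FOSL2 (0.359). For FOSB the genotypes met at 47 CPM, the highest alpha-synuclein and the lowest wild-type library. Its difference passed the threshold without 6-OHDA alpha-synuclein replicate 3 (-0.77, adjusted p = 0.0442) and was -0.305 (adjusted p = 0.193) without replicate 4.

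The interaction, the 6-OHDA change in alpha-synuclein cells minus that in wild-type cells, tests the difference of the responses itself, with any effect of lane included. It was -1.23 ± 0.15 log2 units for JUND (adjusted p = 0.000158) and -0.73 ± 0.14 for JUN (adjusted p = 0.00135), so 2 of 6 members were lower, where 10.5% of all genes were lower and 21.6% changed in either direction. Whether the count of members differs from these shares was not tested. JUND had the 3rd smallest p of all 16601 genes. The values were 0.20 for FOS (95% interval -0.84 to 1.25), -0.78 for FOSB (-1.91 to 0.34), -0.22 for FOSL1 (-1.14 to 0.70) and -1.19 for FOSL2 (-2.31 to -0.069), with adjusted p of 0.836, 0.333, 0.789 and 0.123. Without untreated alpha-synuclein replicate 2, the library with the least FOSL2 of its group, the FOSL2 value was -1.47 (adjusted p = 0.0319). Without 6-OHDA alpha-synuclein replicate 4, JUND was at -1.17 (adjusted p = 0.000154) and JUN at -0.62 (adjusted p = 0.000658). Of the groups in this contrast only 6-OHDA alpha-synuclein cells were on lane 2. A difference of responses and an effect of lane therefore cannot be told apart, here or in the interactions of other genes below.

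**Figure D3:**
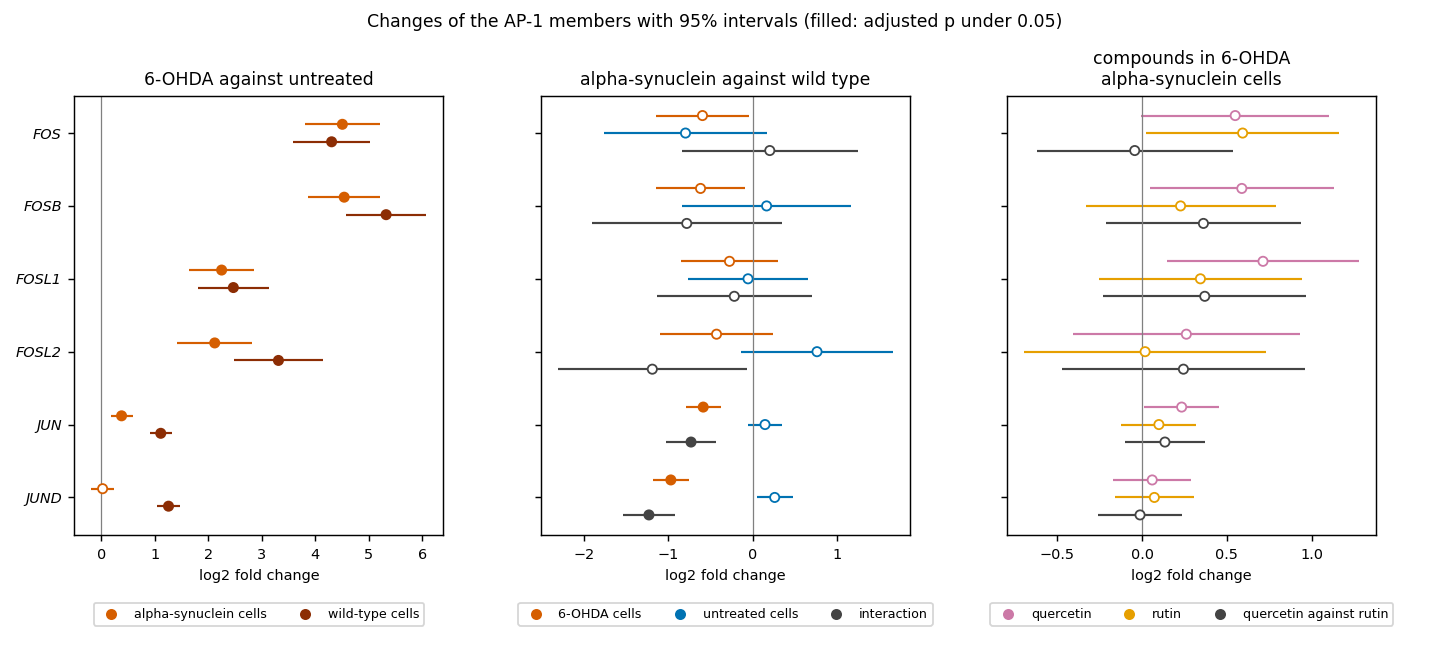
Log2 fold changes of the 6 measured members with 95% intervals for 6-OHDA against untreated cells (left), alpha-synuclein against wild-type cells with their interaction with 6-OHDA (middle) and the compounds (right), where filled points passed an adjusted p of 0.05. JUN and JUND are the members filled in the middle panel, at -0.59 and -0.97 in 6-OHDA cells and at -0.73 and -1.23 for the interaction, and no point is filled in the right panel.

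The estimated differences in JUN and JUND were smaller in a fit that took base composition into account, and whether composition was their cause was not tested. JUND transcripts have 69.7% GC, above 99.6% of tested genes, and the other members 56.5 to 60.5%. Across 16573 genes, which are not independent replicates, the interaction correlated with GC content at r = -0.455, and its median was -0.61 in the 1658 genes richest in GC (62% and above) against -0.011 in all genes. With each library's trend on GC removed by an offset, an alternative chosen after the data were seen, the interaction was -0.39 for JUND (adjusted p = 0.0234) and -0.47 for JUN (adjusted p = 0.0498). The difference between alpha-synuclein and wild-type cells after 6-OHDA was then -0.32 for JUND (adjusted p = 0.00495) and -0.39 for JUN (adjusted p = 0.0133). The 6-OHDA change of JUND became 0.30 in alpha-synuclein cells (adjusted p = 0.000958), which passed the threshold, and 0.69 in wild-type cells (adjusted p = 2.34e-08). Under 6-OHDA the offset gave FOS 4.65 in alpha-synuclein and 4.06 in wild-type cells, and the other FOS genes kept their calls. For FOSL1 the offset turned the sign of the interaction (0.20, adjusted p = 0.876) and of the difference in 6-OHDA cells (0.048, adjusted p = 0.956). In the interaction and in 6-OHDA cells the groups compared also differ by lane, so genotype and lane cannot be told apart.

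**Figure D4:**
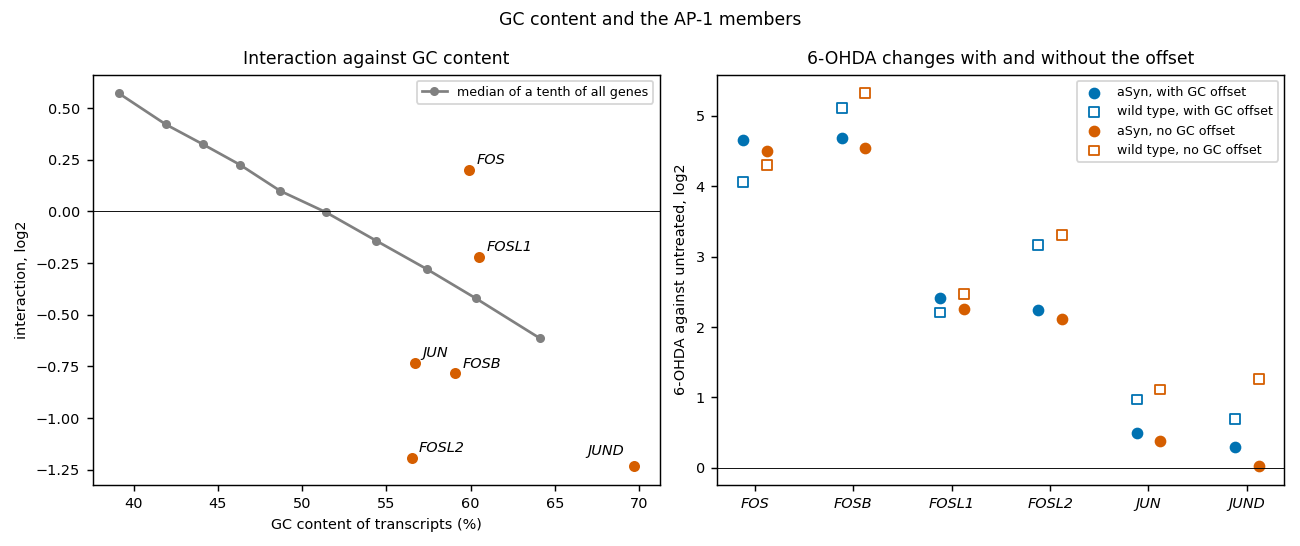
Left, the interaction (log2) against the GC content of transcripts for the 6 measured members (orange) and for medians of all genes in 10 bins of GC content (grey line), and right, the log2 change under 6-OHDA with and without an offset for GC content in alpha-synuclein (filled circles) and wild-type cells (open squares). The grey line falls with GC content to -0.61 in the richest bin. JUND at 69.7% GC has the lowest value among the members without the offset, -1.23, while its value with the offset is -0.39.

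The last question was whether quercetin or its glycoside rutin changed AP-1 in 6-OHDA alpha-synuclein cells. Neither changed any member past the threshold of edgeR's quasi-likelihood test, nor did the compounds differ from each other. Quercetin gave 0 of 6, where 2.53% of all genes changed (0.56% rose and 1.97% fell), with 3 members at an unadjusted p under 0.05 (2802 of all 16601 genes) and 0 by DESeq2. Rutin gave 0 of 6, where 0% of all genes changed, with 1 member at an unadjusted p under 0.05 (1790 of all 16601 genes) and 0 by DESeq2. Quercetin against rutin gave 0 of 6, where 0.00602% of all genes changed, with 0 members at an unadjusted p under 0.05 (1481 of all 16601 genes) and 0 by DESeq2. All 3 groups were on lane 2, and the quercetin and rutin comparisons share the same 6-OHDA libraries.

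FOSB was at 53, 48.7 and 50.7 CPM with quercetin and at 39, 38.9 and 40.95 CPM with rutin, against 33.9, 45.9, 47 and 13.8 CPM with 6-OHDA alone. FOSL1 was at 11.4, 14.6 and 13.2 CPM with quercetin and 9.17, 10.4 and 11.2 CPM with rutin, against 7.98, 10.4, 12 and 3.75 CPM with 6-OHDA alone. For both genes all quercetin libraries were above all rutin libraries, and for FOSB also above all libraries with 6-OHDA alone. How many of all genes separate in this way was not counted in any comparison, so separated ranges are descriptions here. The log2 difference of quercetin from rutin was 0.36 for FOSB (95% interval -0.22 to 0.94, adjusted p = 0.75) and 0.37 for FOSL1 (-0.23 to 0.97, adjusted p = 0.755). For the other members it was -0.044 for FOS (-0.62 to 0.53), 0.24 for FOSL2 (-0.48 to 0.96), 0.13 for JUN (-0.10 to 0.37) and -0.013 for JUND (-0.26 to 0.23).

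FOS was at 20.5, 20.1 and 19 CPM with quercetin and 19.1, 20 and 22.75 CPM with rutin, against 15.45, 19.4, 15.5 and 6.64 CPM with 6-OHDA alone. FOSL2 was at 7.17, 8.24 and 8.14 CPM with quercetin and 5.13, 5.79 and 10.15 CPM with rutin, within the range of 3.97 to 9.69 CPM with 6-OHDA alone but for the highest rutin library. JUN was at 544.5, 485.4 and 431.8 CPM with quercetin and 430.7, 417.7 and 484.7 CPM with rutin, and JUND at 630.5, 576.8 and 506 CPM with quercetin and 599.5, 562.7 and 565.2 CPM with rutin. The ranges of FOS, JUN and JUND overlapped those with 6-OHDA alone under each compound. The log2 changes with quercetin were 0.71 for FOSL1 (adjusted p = 0.176), 0.59 for FOSB (0.25), 0.55 for FOS (0.302), 0.26 for FOSL2 (0.76), 0.23 for JUN (0.261) and 0.059 for JUND (0.861). With rutin they were 0.59 for FOS (0.44), 0.34 for FOSL1 (0.726), 0.23 for FOSB (0.833), 0.099 for JUN (0.808), 0.072 for JUND (0.882) and 0.017 for FOSL2 (0.996). These values rest in part on replicate 4 of the 6-OHDA group, without which quercetin gave 0.39 for FOSL1, 0.27 for FOSB and 0.26 for FOS, and rutin gave 0.30 for FOS, 0.019 for FOSL1 and -0.086 for FOSB.

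Across the 6 groups the means of FOS ran from 20.9 CPM in 6-OHDA wild-type cells through 20.6 with rutin, 19.9 with quercetin and 14.25 with 6-OHDA alone in alpha-synuclein cells to 1.01 in untreated wild-type and 0.522 in untreated alpha-synuclein cells. FOSL1 was highest with quercetin (13.1 CPM), and FOSB, FOSL2, JUN and JUND in 6-OHDA wild-type cells. For each of the 4 FOS genes the lowest of the 6-OHDA groups lay apart from the higher of the untreated groups, and apart from quercetin over rutin in FOSB and FOSL1 no other neighbours in the order were free of overlap. For JUN and JUND the 6-OHDA wild-type group stood apart from the next group, and the remaining neighbours overlapped.

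The proteins that pair with FOS or JUN were followed in a list of 13 dimer partners, of which 9 were tested. After 6-OHDA 6 rose and 0 fell in each genotype, where 22.9% of all genes rose in alpha-synuclein and 25.8% in wild-type cells, with a median log2 change of 1.22 in alpha-synuclein and 1.52 in wild-type cells, against 0.048 in alpha-synuclein and 0.071 in wild-type cells over all genes. ATF3, a stress-induced repressor and partner of JUN, rose by 3.42 ± 0.31 in alpha-synuclein and by 5.41 ± 0.37 in wild-type cells (adjusted p = 1.02e-08 and 1.37e-10). The small MAF proteins, which have no activation domain, followed. MAFG rose by 1.92 ± 0.18 in alpha-synuclein and 3.51 ± 0.21 in wild-type cells, and MAFF rose by 2.12 ± 0.24 in alpha-synuclein and 2.66 ± 0.26 in wild-type cells. JDP2, a JUN dimerization protein that represses AP-1 sites, rose by 1.57 ± 0.25 in alpha-synuclein and 2.29 ± 0.29 in wild-type cells. The interaction was negative for ATF3 (-1.99 ± 0.52, adjusted p = 0.00831) and MAFG (-1.59 ± 0.27, adjusted p = 0.000782). They were the 2 of 9 partners that passed its threshold, where 10.5% of all genes were lower and 21.6% changed in either direction. With the GC offset the interactions were -1.98 (adjusted p = 0.0374) for ATF3 and -1.12 (adjusted p = 0.0183) for MAFG, and without both untreated alpha-synuclein libraries of several barcodes ATF3 was at -1.85 (adjusted p = 0.056).

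Of 13 tested genes of the JNK arm, the kinases and scaffolds that lead to JUN phosphorylation, 0 rose and 8 fell in alpha-synuclein cells (22.9% and 24.2% of all genes) and 1 rose and 6 fell in wild-type cells (25.8% and 26.2% of all genes). Their median log2 change was -0.445 in alpha-synuclein and -0.13 in wild-type cells. MAP3K13, the leucine zipper kinase upstream of JNK in injured axons, fell by 1.18 ± 0.10 in alpha-synuclein and by 1.45 ± 0.11 in wild-type cells (log2 units, adjusted p = 5.17e-09 and 3e-10). The JNK scaffold MAPK8IP2 fell by 1.28 ± 0.13 in alpha-synuclein and by 1.48 ± 0.14 in wild-type cells. The kinase gene MAPK8 (JNK1) fell by 0.445 ± 0.12 in alpha-synuclein and by 1.19 ± 0.12 in wild-type cells. MAPK10 (JNK3) gave -0.10 in alpha-synuclein cells (adjusted p = 0.226) and fell by 0.62 ± 0.069 in wild-type cells. The scaffolds MAPK8IP1 and MAPK8IP3 fell in alpha-synuclein cells by 0.585 ± 0.076 for MAPK8IP1 and by 0.69 ± 0.078 for MAPK8IP3. In the interaction 2 of 13 were higher and 4 lower, where 11.2% of all genes were higher and 10.5% lower. The higher ones were MAPK8 (0.74, adjusted p = 0.00321) and MAPK10 (0.52, adjusted p = 0.00116). The lower ones were MAPK8IP1 (-0.50, adjusted p = 0.00262), MAPK8IP3 (-0.56, adjusted p = 0.00166), the JNK kinase MAP2K7 (-0.58, adjusted p = 0.00216) and the scaffold SH3RF1 (-1.13, adjusted p = 0.0232). MAP2K7 and SH3RF1 were named after their values were seen. With the GC offset all 6 missed the threshold, at 0.265 (adjusted p = 0.251) for MAPK8, 0.22 (0.11) for MAPK10, 0.074 (0.743) for MAPK8IP1, 0.0013 (0.998) for MAPK8IP3, -0.033 (0.924) for MAP2K7 and -1.17 (0.0619) for SH3RF1, which also missed it without single libraries. With quercetin 1 of 13 fell, where 1.97% of all genes fell. It was MAP3K12 (-0.48 ± 0.13, adjusted p = 0.0431), the dual leucine zipper kinase.

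In the arm of ERK, SRF and CREB that feeds the FOS promoter, 4 rose and 4 fell of 18 in alpha-synuclein cells and 4 rose and 5 fell in wild-type cells, with a median log2 change of -0.14 in alpha-synuclein and 0.20 in wild-type cells. These counts are near the shares of all genes, of which 22.9% rose and 24.2% fell in alpha-synuclein and 25.8% rose and 26.2% fell in wild-type cells. CREM, a CREB relative, rose by 1.37 ± 0.10 in alpha-synuclein and 1.60 ± 0.11 in wild-type cells, and the ERK kinase MAP2K1 by 0.52 ± 0.066 in alpha-synuclein and 0.67 ± 0.069 in wild-type cells. The CREB coactivator CRTC1 fell by 1.12 ± 0.13 in alpha-synuclein and by 1.01 ± 0.135 in wild-type cells. The SRF partner ELK4 rose by 0.50 ± 0.088 in alpha-synuclein cells, and MAP2K2 by 0.78 ± 0.083 in wild-type cells. With quercetin CREM was the 1 of 18 that changed (0.40 ± 0.11, adjusted p = 0.0454), where 2.53% of all genes changed.

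Of 7 tested brakes on JNK and JUN, 2 rose and 1 fell in alpha-synuclein cells (22.9% and 24.2% of all genes) and 2 rose and 4 fell in wild-type cells (25.8% and 26.2%). The median log2 change was 0.083 in alpha-synuclein and -0.24 in wild-type cells. FBXW7, which marks JUN for degradation, rose by 0.42 ± 0.098 in alpha-synuclein and 0.40 ± 0.10 in wild-type cells. DET1, of the COP1 ubiquitin ligase for JUN, fell by 0.28 ± 0.11 in alpha-synuclein and by 0.45 ± 0.115 in wild-type cells. The ubiquitin ligase ITCH rose by 0.29 ± 0.087 in alpha-synuclein and fell by 0.24 ± 0.09 in wild-type cells (interaction 0.52 ± 0.125, adjusted p = 0.00497), but with the GC offset it gave 0.12 (adjusted p = 0.117) in alpha-synuclein and -0.095 (adjusted p = 0.222) in wild-type cells. Of the JNK phosphatases in wild-type cells, DUSP16 fell by 0.39 ± 0.099 and DUSP10 rose by 1.52 ± 0.50. DUSP10 was near the floor, at a mean of 1.93 CPM in 6-OHDA against 0.697 CPM in untreated wild-type cells. The fall of DET1 in alpha-synuclein cells and the rise of DUSP10 each missed the threshold without single libraries, DUSP10 without 6-OHDA wild-type replicate 1 (1.23, adjusted p = 0.12).

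Of 10 tested classical AP-1 targets, 4 rose and 2 fell in alpha-synuclein cells (22.9% and 24.2% of all genes) and 4 rose and 1 fell in wild-type cells (25.8% and 26.2%). The median log2 change was 0.61 in alpha-synuclein and 0.66 in wild-type cells. CCND1, the cyclin that drives entry into S phase, fell by 2.36 ± 0.21 in alpha-synuclein and by 1.88 ± 0.22 in wild-type cells, and was higher with quercetin (0.88 ± 0.23, adjusted p = 0.0417). IL11, a cytokine, fell by 0.92 ± 0.17 in alpha-synuclein and rose by 0.67 ± 0.17 in wild-type cells (interaction -1.595 ± 0.24, adjusted p = 0.000365), and with the GC offset its wild-type value was 0.35 (adjusted p = 0.103) and its interaction -1.085 (adjusted p = 0.0171). IL11 already differed in untreated cells, at 19.1 ± 3.12 CPM in alpha-synuclein and 11.6 ± 1.71 CPM in wild-type cells (SD, n = 4 each; log2 0.72, adjusted p = 0.0404), a call that was lost with the GC offset (0.58, adjusted p = 0.142) and in most fits without 1 library (0.60 to 0.79, adjusted p = 0.0279 to 0.149). PLAUR, the urokinase receptor, rose by 0.87 ± 0.23 in alpha-synuclein and by 0.67 ± 0.25 in wild-type cells, where it missed the threshold with the GC offset (0.54, adjusted p = 0.0765) and without single libraries. SPP1 and HBEGF, at or near 0 in untreated cells, also rose in both genotypes, but their group means after 6-OHDA alone were at most 2.21 and 0.736 CPM, near the floor. Both passed the filter on low counts only through groups with 6-OHDA, so the filter favoured rises in this count. HBEGF missed the threshold without 6-OHDA replicate 1 in alpha-synuclein (1.23, adjusted p = 0.17) and in wild-type cells (2.97, adjusted p = 0.105). The list's metalloproteases in the table, MMP3, MMP9, MMP10 and MMP13, did not pass the filter on low counts.

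Of 10 tested JUN-linked genes of neuronal injury and death, 3 rose and 3 fell in each genotype, with ATF3 counted here as well, which is near the shares of all genes (22.9% and 24.2% in alpha-synuclein, 25.8% and 26.2% in wild-type cells). The median log2 change was 0.13 in alpha-synuclein and 0.23 in wild-type cells. BBC3, which encodes the death-promoting protein PUMA, rose by 1.40 ± 0.13 in alpha-synuclein and by 2.59 ± 0.14 in wild-type cells (interaction -1.18 ± 0.19, adjusted p = 0.000583), and its interaction was -0.60 (adjusted p = 0.0531) with the GC offset. GAP43, a growth cone protein that also served as a neuron marker, fell by 1.17 ± 0.12 in alpha-synuclein and by 1.27 ± 0.12 in wild-type cells. ECEL1, a protease induced by nerve injury in rodents, fell by 1.18 ± 0.19 in alpha-synuclein and by 0.97 ± 0.19 in wild-type cells. HRK, a neuronal death gene of the BCL2 family, fell by 0.36 ± 0.13 in alpha-synuclein cells, a call that was lost without single libraries, and by 0.56 ± 0.14 in wild-type cells. With quercetin HRK was at 37.5 ± 0.707 CPM (SD, n = 3), against 59.8 ± 17.3 CPM with 6-OHDA alone (n = 4) (log2 -0.70 ± 0.15, adjusted p = 0.0176). It was the 1 of 10 that changed, where 2.53% of all genes changed. The quercetin calls were fragile. Without replicate 4 of the 6-OHDA group HRK was at -0.45 (adjusted p = 0.0494), but MAP3K12 (-0.475, adjusted p = 0.118), CREM (0.30, adjusted p = 0.172) and CCND1 (0.86, adjusted p = 0.151) missed the threshold, and HRK missed it without quercetin replicate 2 or 3. Fitting only the groups compared, with all their libraries, also ended all 4 calls (adjusted p = 0.206 for HRK, 0.179 for MAP3K12, 0.23 for CREM and 0.146 for CCND1). With rutin 0 genes of any list passed edgeR's test, by which 0 of all genes did (1790 at an unadjusted p under 0.05, and 285 by DESeq2).

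**Figure D5:**
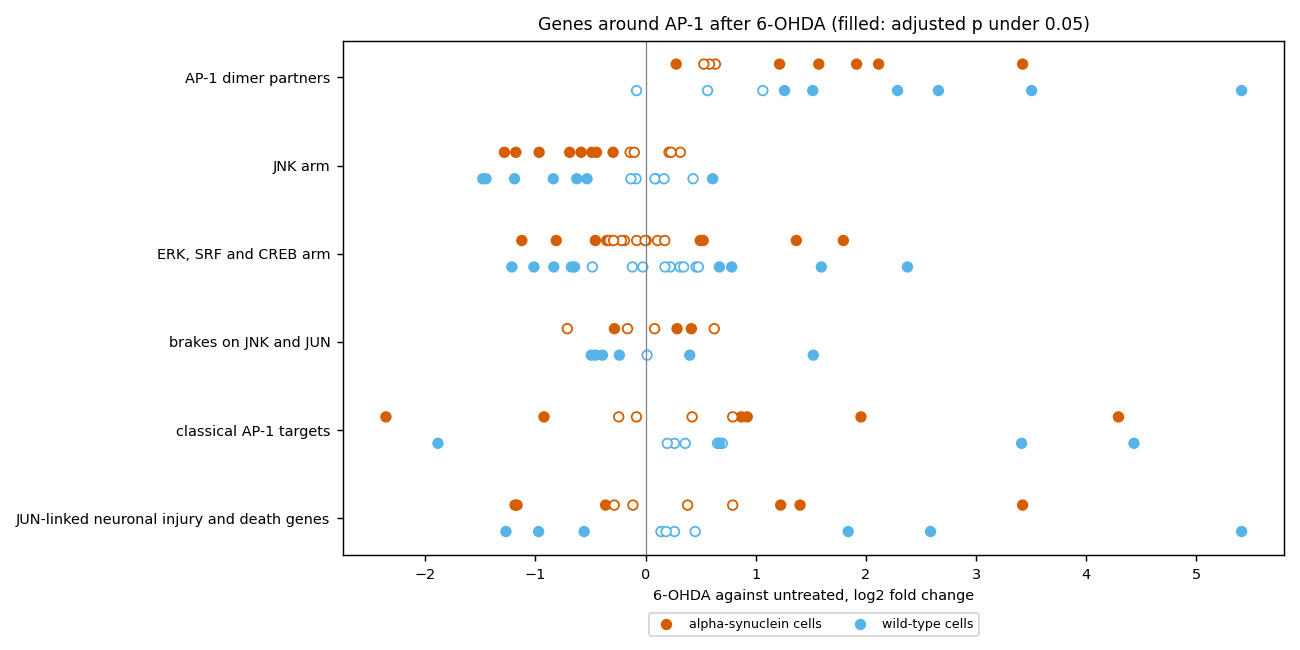
Log2 change under 6-OHDA of each tested gene in the 6 lists around AP-1, for alpha-synuclein cells (upper row of a list) and wild-type cells (lower row), with filled points past an adjusted p of 0.05. The dimer partners have 6 filled points in each genotype, all to the right of 0 and up to 3.42 and 5.41 (ATF3), while the filled points of the JNK arm are to the left of 0 but for 1 in wild-type cells.

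The genes most like each member in their levels across libraries were sought among 11502 genes with a mean of at least 5 CPM, by Pearson's r of log2 CPM over all 22 libraries. These libraries fall into 6-OHDA and untreated clusters, so r within the 14 libraries with 6-OHDA is given after each, as a description. FOS was closest to GADD45B (0.991, and 0.718 within 6-OHDA libraries), a stress gene of the MAP kinase pathway, then to RPS12 (0.978 and 0.767) and HSP90AB1 (0.978 and 0.912). FOSB was closest to FAM166A (0.989 and 0.89), SRXN1 (0.988 and 0.663), which encodes the antioxidant enzyme sulfiredoxin, and EIF4A1 (0.986 and 0.844). FOSL1 was closest to TFRC (0.975 and 0.777), BEST1 (0.974 and 0.768) and ERBB3 (0.972 and 0.883), and FOSL2 to TCF7 (0.969 and 0.857), AC068946.2 (0.965 and 0.678) and MT1X (0.965 and 0.802), a metallothionein. JUN was closest to DEDD2 (0.981 and 0.952), RAB11FIP5 (0.971 and 0.958) and RNF19B (0.968 and 0.923). JUND was closest to HES4 (0.963 and 0.984), TPGS1 (0.958 and 0.988) and C19orf25 (0.958 and 0.974), whose transcripts have 74.2, 67.9 and 64.2% GC. The genes named for JUN have 63.7, 59.5 and 55.6% GC, and those named for the FOS genes 41.9 to 60.6%.

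Among the members themselves, JUN and JUND moved together within the 14 libraries with 6-OHDA (r = 0.884) and within the 8 untreated libraries (r = 0.893), while FOS and FOSB had r = 0.901 within the libraries with 6-OHDA and -0.42 within the untreated ones, where their counts were low. Within the libraries with 6-OHDA FOS and JUND had r = 0.384 and FOSL1 and JUND r = 0.0528. These correlations are descriptions over libraries that share groups, lanes and depth.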

How the data were processed

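The deposited values of the 22 LUHMES libraries are estimated counts per Ensembl gene, given by the authors as whole numbers with no scaling. The submitters' processing notes name Trimmomatic 0.38, kallisto 0.46.2, GRCh38 and hg38. The sources used here give no annotation release, strand setting or use of molecular identifiers. Each column carries the name of its library. Kallisto divides reads that similar transcripts share.

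The counts went into edgeR 4.0.16 under R 4.3.3. After filterByExpr (minimum count 10) 16601 genes were left, and the genes dropped held 0.174% of counts. TMM scaled the libraries, and 1 quasi-likelihood model (glmQLFit, glmQLFTest) with a mean per group gave 8 contrasts. A call is an adjusted p below 0.05 over all genes. SEs and 95% intervals were derived from each fold change and its F value. The fit was also run on simulated data with a common spread for all genes. That simulation held no effect of lane or base composition and no outlying library, so it cannot speak to these. Levels per kilobase divide CPM by the mean length of protein-coding transcripts in GENCODE 29. A floor of 3 counts covers counting error only.

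Alternatives were DESeq2 1.42.0, its size factors, no count filter or a minimum of 30, fitting only the groups compared, a replicate block, omission of each library, omission of the 2 untreated alpha-synuclein libraries with several barcodes and, chosen after seeing the data, a GC offset. Deviations of same-numbered libraries did not correlate (0 of 51 pairs over 0.1, range -0.138 to 0.0776), so the main fit did not use the numbers as pairs. This check cannot exclude that same-numbered libraries shared a culture or day, which the labels do not give. Replicates differed beyond sampling noise (chi-square per degree of freedom 2.73 to 23.6).

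Named are all members and, from each list, up to 4 called genes with the smallest adjusted p in each 6-OHDA, quercetin and rutin contrast. A few genes that fall under this rule or check the labels are not reported here. MMP genes, MAP2K7 and SH3RF1 were named after their values were seen. Members, lists and motifs were chosen with earlier results of these data known. RefSeq (GRCh38.p14) promoters matched 6 of 7 members, all but FOSL1. JUNB and 5 list genes were not used here.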

Additional observations from a re-analysis of the deposited data

Results flagged for a closer look

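The response to 6-OHDA differed between the genotypes for JUND and JUN by a test of the difference itself. The 6-OHDA change in alpha-synuclein cells minus that in wild-type cells was -1.23 for JUND (adjusted p = 0.000158) and -0.73 for JUN (adjusted p = 0.00135) on the log2 scale, by edgeR's quasi-likelihood test. Leaving out each of the 16 libraries in turn gave -1.32 to -1.15 for JUND and -0.778 to -0.617 for JUN. With an offset for GC content the values were -0.39 (adjusted p = 0.0234) for JUND and -0.47 (adjusted p = 0.0498) for JUN, and the number of genes with a called interaction was 710 against 3594 without the offset. The part of base composition was not tested further, and genotype and lane cannot be told apart. Dixon's criterion, which reads 1 member in 4 libraries at a time and has little power there, marked no value in 24 such sets, although replicate 4 of the 6-OHDA alpha-synuclein group was the lowest of its group for all 6 members.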

How the results depend on the processing

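The count of members called kept within 1.5 times its value in every alternative run: 6 for 6-OHDA in wild-type cells, 5 to 6 in alpha-synuclein cells, 2 to 3 for alpha-synuclein in 6-OHDA cells and for the interaction, and 0 in the other comparisons. The GC offset, chosen after seeing the data, added JUND to the calls for 6-OHDA in alpha-synuclein cells (0.30) and moved the JUND interaction to -0.39. It also moved genes called from 4537 to 1751 for alpha-synuclein in 6-OHDA cells, and for quercetin from 420 to 704. For quercetin DESeq2 called 969 genes, for rutin 285 against 0, for quercetin against rutin 0.699% of genes against 0.00602% and for alpha-synuclein in untreated cells 230 against 108. Without 1 library, quercetin calls ran from 26 to 896 and rutin calls from 0 to 143.

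Among members, signs turned only for values that passed no threshold, and the cause was not tested. JUND for quercetin against rutin became 0.0047 with DESeq2's size factors, 0.0023 at a minimum count of 30, 0.013 with only the groups compared and 0.0048 in DESeq2, and JUND for 6-OHDA in alpha-synuclein cells -0.00064 without a count filter. FOSL1 became 0.048 for alpha-synuclein in 6-OHDA cells and 0.20 for the interaction with the GC offset, and 0.097 for the interaction without the libraries of several barcodes. Leaving out 1 library gave ranges through 0. For alpha-synuclein in untreated cells they were -0.21 to 0.10 (FOSL1) and -0.20 to 0.56 (FOSB), for FOSL1 -0.48 to 0.047 in 6-OHDA cells and -0.42 to 0.10 in the interaction, and for JUND under 6-OHDA in alpha-synuclein cells -0.053 to 0.12. With rutin they were -0.086 to 0.41 (FOSB), -0.28 to 0.20 (FOSL2) and -0.017 to 0.15 (JUN), with quercetin -0.025 to 0.13 (JUND), and between the compounds -0.089 to 0.064 (JUND) and -0.097 to 0.027 (FOS).

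A fit with the replicate number as a block, although same-numbered libraries did not correlate, called FOSB lower in alpha-synuclein than in wild-type 6-OHDA cells (-0.70, adjusted p = 0.0284), changed no other member's call and gave 120 genes called for quercetin. Of the called list-gene changes, 72 values (764 kept the call) with 1 library left out and 57 values (611 kept it) under other alternatives missed the threshold. With the GC offset the interactions of MAPK8IP1 and MAPK8IP3 turned to 0.074 and 0.0013, and the differences between genotypes in 6-OHDA cells to 0.017 (MAPK8IP1), 0.054 (MAPK8IP3) and 0.021 (MAP2K7). Depth limits the FOS genes in untreated cells, where 1 to 35 counts stand behind a value.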
